A study of Homo sapiens with 6 samples.

Results

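Glutathione transferases were measured as mRNA in MDA-MB-231 cells, a triple-negative breast cancer (TNBC) line, and in an Adriamycin-resistant line (ADRr) derived from it. Adriamycin (ADR, doxorubicin) is an anthracycline used against breast cancer. The 10 genes described here were chosen by name, as cytosolic, mitochondrial and microsomal glutathione S-transferases, and all 10 have a row among the 58735 genes of the count table. The parent group held 3 libraries labelled wild type, and the ADRr group held 3 libraries labelled ADR resistant. ADRr cells had been selected in stepwise rising ADR and isolated by limiting dilution, so the resistant group is a selected clone. The dose, if any, at harvest is not given in the sources used here. The series record speaks of 3 time points, but no sample label names one. The labels do not say that the libraries of a group came from separate cultures, so the p-values measure the spread between these libraries, which may be technical.

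Glutathione transferases join the thiol of glutathione to electrophilic compounds, which makes them more soluble and marks them for export. The cytosolic enzymes fall into classes such as alpha, mu, pi, theta, omega and zeta. GSTK1 is the kappa enzyme of mitochondria and peroxisomes, and the MGST proteins are membrane enzymes of a separate family. Several of them also reduce lipid peroxides. GSTP1, the pi enzyme, is the main transferase of many tumours and has long been studied in drug resistance. These counts measure mRNA and hold no value for enzyme activity.

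Total counts ranged from 15983985 to 18272314 per library. A gene without a read could still have a true level of up to 3 counts, which is 0.164 to 0.188 CPM (counts scaled to library size), for counting error only. FPKM is the read count scaled to gene length and library size, as the authors computed it. In bulk RNA, fewer cells with a transcript and less of it per cell cannot be told apart. Fold changes come from edgeR's quasi-likelihood test on 15242 genes. A gene was called when its Benjamini-Hochberg adjusted p was at most 0.05 and its fold change at least 1.2, a log2 value of 0.263. ESR1 and PGR, the hormone receptors that TNBC lacks, had at most 1 count in any library. The other 3 markers listed as low or absent in this line had reads, with 108 to 259 counts for CDH1, 152 to 492 for EPCAM and 882 to 2303 for ERBB2. CDH1 and ERBB2 were called lower in ADRr cells (log2 fold change -1.07 and -1.25) and EPCAM higher (1.10). All 7 markers listed as present were detected, of which EGFR and CD44 were called higher (1.39 and 0.80), AXL, KRT18, KRT8 and VIM lower (-0.62, -0.65, -2.00 and -0.56), and MSN was not called (0.13). The leukocyte markers PTPRC, CD53, LYZ and TYROBP had at most 4 counts in each library. Of the endothelial markers, CDH5 had at most 2 counts in each library and PECAM1 4 to 13 (log2 fold change 0.21, not called). VWF had 0 counts in each parent library and 2 to 7 in ADRr libraries, and was not tested.

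The promoter regions of 3 members are shown first, because GSTP1 and GSTO1 were the most abundant members and rose, while GSTM2 was the least abundant and fell the most. Each is the 250 bases before the RefSeq transcript start (GRCh38.p14, plus strand), 5′ to 3′. Capitals mark matches to TGACNNNGC, a core form of the antioxidant response element, to which NRF2 and small MAF proteins bind. GSTP1 lies at chr11:67583562-67583811, GSTO1 at chr10:104254642-104254891 and GSTM2 at chr1:109667807-109668056.
GSTP1: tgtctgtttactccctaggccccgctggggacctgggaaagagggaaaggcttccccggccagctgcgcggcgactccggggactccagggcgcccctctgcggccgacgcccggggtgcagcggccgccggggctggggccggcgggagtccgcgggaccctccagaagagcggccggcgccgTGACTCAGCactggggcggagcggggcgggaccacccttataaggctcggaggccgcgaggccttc
GSTO1: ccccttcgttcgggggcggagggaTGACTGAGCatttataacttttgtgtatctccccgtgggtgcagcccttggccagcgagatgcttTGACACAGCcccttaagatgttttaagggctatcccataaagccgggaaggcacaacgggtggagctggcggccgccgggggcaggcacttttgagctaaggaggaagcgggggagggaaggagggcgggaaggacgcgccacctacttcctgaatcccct
GSTM2: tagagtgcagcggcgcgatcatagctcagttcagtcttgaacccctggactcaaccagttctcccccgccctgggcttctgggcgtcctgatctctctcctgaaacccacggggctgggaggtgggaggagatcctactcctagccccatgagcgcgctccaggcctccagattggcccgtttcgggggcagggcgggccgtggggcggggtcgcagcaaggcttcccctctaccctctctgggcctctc

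The GSTP1 match begins at base -66 from the start. It contains TGACTCA, the AP-1 motif, so both motifs overlap there. GSTO1 held 2 matches, which begin at bases -226 and -161. Over windows of 250 bases before to 50 after the start, searched on both strands, TGACNNNGC stood in 3 of the 11 windows of the members (in GSTP1, GSTO1 and MGST1) and in 13.34% of all 34943 windows. Of the 9 members with a window only MGST1 has more than 1, and of its 3 the match begins at base 31 after the start of 1. Of the members with a match, GSTP1 and GSTO1 were called higher in ADRr cells. MGST1 was called lower (log2 fold change -0.27), just past the fold threshold. MGST3 and GSTZ1, the members with the largest rises (0.64 and 0.59), held no match in these windows. Sites outside the windows were not searched, and a link between motif and direction was not tested. The AP-1 motif TGACTCA or TGAGTCA stood in GSTP1 alone among these members and in 4.96% of all windows. The core of the xenobiotic response element, GCGTG, stood in GSTM3, GSTM4, GSTZ1 and MGST3 and in 36.48% of all windows. GSTP1 and GSTZ1 had the most GC-rich windows, 74.0% and 74.3% GC with 36 and 33 CpG sites, against a median over all windows of 58.7% and 14. A match in letters is a description of the sequence and not a measured binding site.

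All 10 members passed the filter on low counts. Of these, 4 were called higher in ADRr cells (GSTP1, GSTO1, GSTZ1 and MGST3), 4 were called lower (GSTM2, GSTM4, MGST1 and MGST2) and GSTK1 and GSTM3 were not called. Over all tested genes, 29.2% were called higher and 29.6% lower. For 4 members every ADRr library lay above every parent library, and for 5 every ADRr library lay below, where 34.5% and 34.7% of all tested genes did so. With 10 genes these shares are near the background, so the family as a whole did not stand apart, and the results concern which members moved. The median log2 fold change of the members was -0.13, and that of all tested genes was -0.0061.

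**Figure D1:**
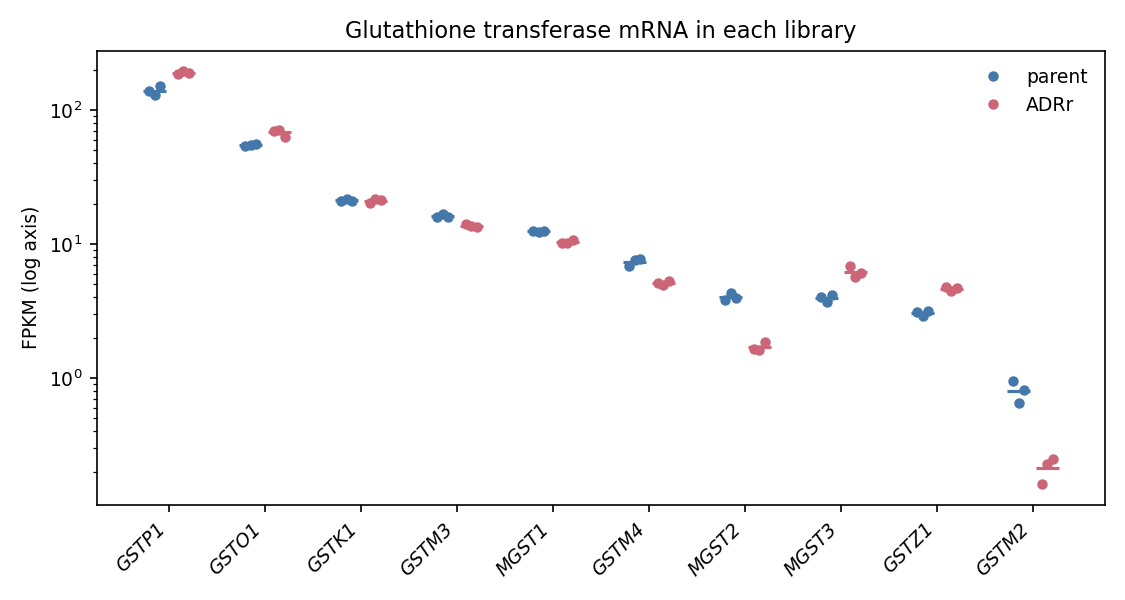
Level of each glutathione transferase (FPKM, logarithmic axis) in the 3 parent and 3 ADRr libraries, ordered by the parent mean, with horizontal lines for group means. The groups overlap for GSTK1 only. GSTP1 is at the top in both groups and GSTM2 at the bottom.

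GSTP1 (ENSG00000084207, chromosome 11, 67583595 to 67586656, plus strand, GRCh38) was the most abundant member in both lines. Its level was 138, 128 and 152 FPKM in parent replicates 1 to 3 and 186, 194 and 188 FPKM in ADRr replicates 1 to 3. Every ADRr library lay above every parent library, and the parent libraries were the more variable ones. Its mean rose from 139 ± 11.7 to 189 ± 4.26 FPKM (SD, n = 3 libraries each). The log2 fold change from the counts was 0.44 (standard error 0.056, edgeR adjusted p = 4.3e-07), a 1.35-fold rise. By level GSTP1 stood at the 98.9th percentile of tested genes, and by log2 fold change at the 74.4th.

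GSTO1 (ENSG00000148834, chromosome 10, 104235356 to 104267459, plus strand), the omega enzyme, which reduces glutathionylated proteins and dehydroascorbate, came next. It measured 53.8, 54.9 and 56.2 FPKM in parent and 70.3, 70.8 and 63.3 FPKM in ADRr libraries. ADRr replicate 3 was the lowest of its group but still above the parent range. The counts gave a log2 fold change of 0.30 (standard error 0.060, edgeR adjusted p = 1.1e-04), a 1.24-fold rise. Tested against a fold of 1.2 itself with edgeR's glmTreat, the adjusted p was 0.17, so a rise of more than 1.2-fold was not shown. GSTO2, its neighbour and paralog, was near the bottom of the measured range, with 26 to 40 counts in parent and 22 to 26 in ADRr libraries.

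GSTZ1 (ENSG00000100577, chromosome 14, 77320884 to 77331597, plus strand), the zeta enzyme, isomerises maleylacetoacetate in tyrosine breakdown. It was at 3.10, 2.89 and 3.19 FPKM in parent and 4.75, 4.47 and 4.66 FPKM in ADRr libraries. The groups did not overlap. The change on the log2 scale was 0.59 (standard error 0.079, edgeR adjusted p = 7.7e-07), or 1.51-fold.

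GSTK1 (ENSG00000197448, chromosome 7, 143244093 to 143270854, plus strand) was the member with the smallest difference. Its level was 20.8, 21.7 and 21.0 FPKM in parent and 20.1, 21.9 and 21.2 FPKM in ADRr libraries, and the groups overlapped. The log2 fold change was -0.013, with a 95% interval of -0.13 to 0.11 (edgeR adjusted p = 0.86). The interval leaves room for a change of less than 1.2-fold either way.

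The mu enzymes lie side by side on chromosome 1 and conjugate many aromatic electrophiles. GSTM3 is on the minus strand and the other members of the cluster are on the plus strand. GSTM2 (ENSG00000213366, 109668022 to 109709551) had 146, 96 and 133 counts in parent and 27, 35 and 42 counts in ADRr libraries, and all ADRr libraries were below all parent libraries. Its log2 fold change was -1.92 (standard error 0.21, edgeR adjusted p = 4.3e-08), 3.78-fold lower. This was the largest change among the 10 members, on the lowest level, 0.802 ± 0.147 FPKM in parent and 0.213 ± 0.0453 FPKM in ADRr cells. On the log2(FPKM + 1) scale, which understates the change of low genes, the log2 value of GSTM2 was -0.57.

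GSTM4 (ENSG00000168765, 109656081 to 109674836) fell from 6.84, 7.62 and 7.71 FPKM in parent to 5.10, 4.97 and 5.33 FPKM in ADRr libraries. Its log2 fold change was -0.53 (standard error 0.079, edgeR adjusted p = 3.3e-06). GSTM3 (ENSG00000134202, 109733932 to 109741038) was the most abundant mu member, at 15.9, 16.7 and 15.8 FPKM in parent and 14.0, 13.7 and 13.4 FPKM in ADRr libraries. Here too the groups did not overlap, but its log2 fold change of -0.24 (standard error 0.061, edgeR adjusted p = 0.0016) was smaller than the 1.2-fold threshold. GSTM1, which is not one of the 10 and whose annotated span lies within that of GSTM2, fell as well, from 8.18, 7.31 and 8.18 FPKM to 3.93, 3.55 and 4.17 FPKM. This was a log2 fold change of -1.03 (standard error 0.11, edgeR adjusted p = 2.0e-08).

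The mu genes are close copies, and their annotated exons overlap. In GENCODE 29, 559 exonic bases of GSTM2 are also exonic in GSTM1 and 375 in GSTM4, on the same strand. Of the 100-base windows in GSTM2 transcripts, 12.9% also stand in a transcript of another gene, and 6.51% of those of GSTM4 do. The values of GSTM1, GSTM2 and GSTM4 are therefore uncertain as to which gene a read came from. GSTM3 shares no such window. With GSTM1 to GSTM5 counted as 1 feature the sum was 2440, 2381 and 2655 counts in parent and 1967, 1749 and 1994 counts in ADRr libraries. The log2 fold change of the sum was -0.46 (standard error 0.053, edgeR adjusted p = 7.3e-08). This value does not depend on which of these genes a counted read was given to. Reads that match several genes may have been left out or counted more than once, and that would still affect the sum.

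**Figure D2:**
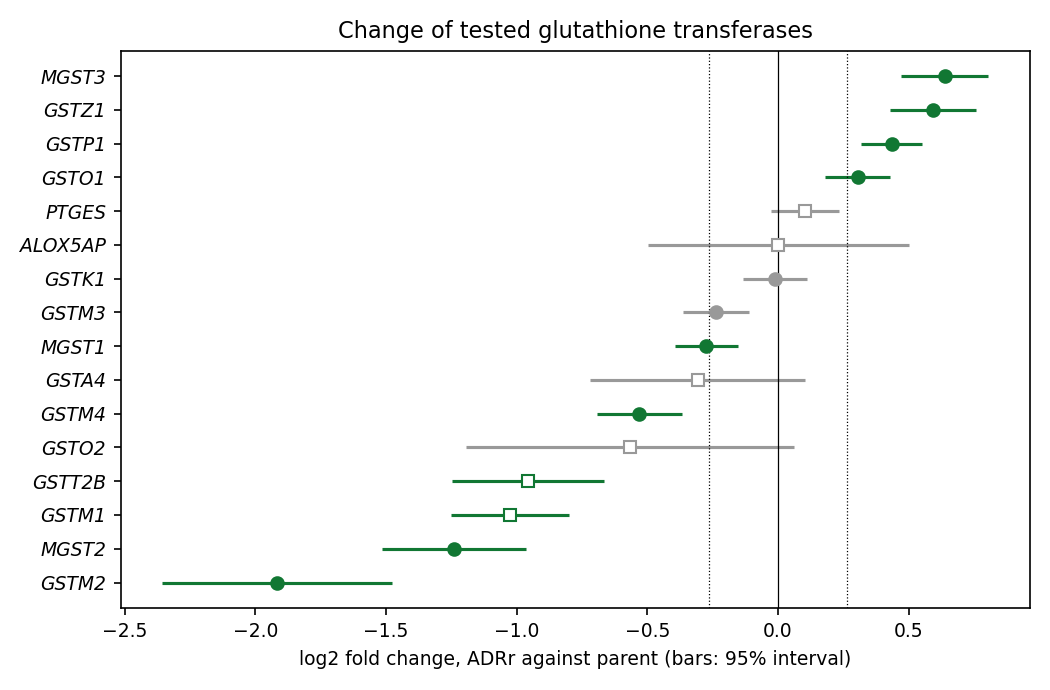
Log2 fold change of the 16 tested transferases, ADRr against parent, with 95% intervals. Filled circles are the 10 members and open squares the other transferases, green marks genes that were called, and dotted lines mark a 1.2-fold change. MGST3 is at the top (0.64) and GSTM2 at the bottom (-1.92).

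The microsomal enzymes moved in different directions. MGST1 (ENSG00000008394, chromosome 12, 16347142 to 16609259, plus strand), which detoxifies lipid hydroperoxides in the endoplasmic reticulum and outer mitochondrial membrane, was at 12.5, 12.4 and 12.5 FPKM in parent and 10.1, 10.1 and 10.7 FPKM in ADRr libraries. The groups did not overlap, and the log2 fold change was -0.27 (standard error 0.058, edgeR adjusted p = 2.5e-04). This lies just past the fold threshold, and under 8 of 20 alternative settings MGST1 was no longer called, with values between -0.30 and -0.25 over all of them. Among those were the fits without ADRr replicate 1 (-0.25) and without ADRr replicate 2 (-0.26).

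MGST2 (ENSG00000085871, chromosome 4, 139665768 to 139740745, plus strand), which can also make leukotriene C4, measured 3.82, 4.33 and 3.96 FPKM in parent and 1.65, 1.62 and 1.87 FPKM in ADRr libraries. The ADRr values were all lower than the lowest parent value. In the fit its log2 fold change was -1.24 (standard error 0.13, edgeR adjusted p = 2.5e-08), 2.36-fold lower. The opposite-strand gene MAML3 covers 7.92% of its exonic bases, and whether the counting used strand is not given in the sources used here. MAML3 had 10 to 22 counts per library, against 86 to 227 for MGST2.

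MGST3 (ENSG00000143198, chromosome 1, 165630861 to 165661796, plus strand), a glutathione peroxidase and transferase of the same family, was at 4.04, 3.68 and 4.18 FPKM in parent and 6.82, 5.73 and 6.03 FPKM in ADRr libraries. Its log2 fold change of 0.64 (standard error 0.080, edgeR adjusted p = 3.3e-07) was the largest rise of any member, 1.56-fold. In parent counts MGST3 was above MGST2 (575, 500 and 632 against 206, 223 and 227). FPKM divides by the exonic length, 8401 bases for MGST3 and 3182 for MGST2. On that scale their parent levels overlapped, with a ratio of MGST3 to MGST2 FPKM of 0.987 ± 0.119. In ADRr cells the ratio was 3.63 ± 0.466 (SD, n = 3, exact permutation test, two-sided, p = 0.1, the smallest that 3 against 3 libraries can give). With MGST3 higher and MGST2 lower in every ADRr library, that p was fixed beforehand. It adds nothing to the results of the single genes.

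By level per length, parent cells ranked GSTP1, GSTO1, GSTK1, GSTM3, MGST1, GSTM4, MGST2, MGST3, GSTZ1 and GSTM2. Only MGST2 and MGST3 overlapped in their libraries, and all other neighbours in that order lay apart. The first 5 kept their places in ADRr cells. Below them the ADRr order was MGST3, GSTM4, GSTZ1, MGST2 and GSTM2, with no overlap between neighbours. MGST2 thus went from rank 7 to rank 9, and MGST3 from rank 8 to rank 6. These ranks, and the FPKM sums and shares, depend on the exonic lengths, from 1691 bases for GSTO1 to 9116 for GSTM2.

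The summed FPKM of the 10 members was 259.8, 253.2 and 277.1 in parent and 319.0, 327.5 and 314.4 in ADRr libraries, a ratio of means of 1.22 (exact permutation test on log2 sums, two-sided, p = 0.1, the smallest possible here). The ADRr sums all lay above the parent sums. Without GSTP1 the sum was 124.0 ± 1.96 in parent and 131.1 ± 3.76 in ADRr cells, so most of the difference of 56.9 FPKM was GSTP1. GSTP1 made up 53.1%, 50.7% and 54.7% of the sum in parent and 58.3%, 59.2% and 59.7% in ADRr libraries. The share of GSTO1 was 20.9% ± 0.706 in parent and 21.3% ± 0.991 in ADRr cells, which differed by less than the spread between libraries. GSTM2, GSTM3 and GSTM4 together made up 9.25% ± 0.540 in parent and 5.96% ± 0.159 in ADRr cells, and the 3 microsomal members 7.77% ± 0.303 and 5.70% ± 0.319. Adjusted over the 10 members, the exact permutation p of a share was 0.111 for each member other than GSTO1, for which it was 0.8. A share depends on all the other members, so a lower share is not by itself a lower level, as GSTK1 shows with 8.05% in parent and 6.57% in ADRr cells at overlapping FPKM. With the other transferases described below added, the sum was 321.9 ± 14.0 in parent and 370.2 ± 7.32 in ADRr cells. That is a smaller ratio of means, 1.15.

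**Figure D3:**
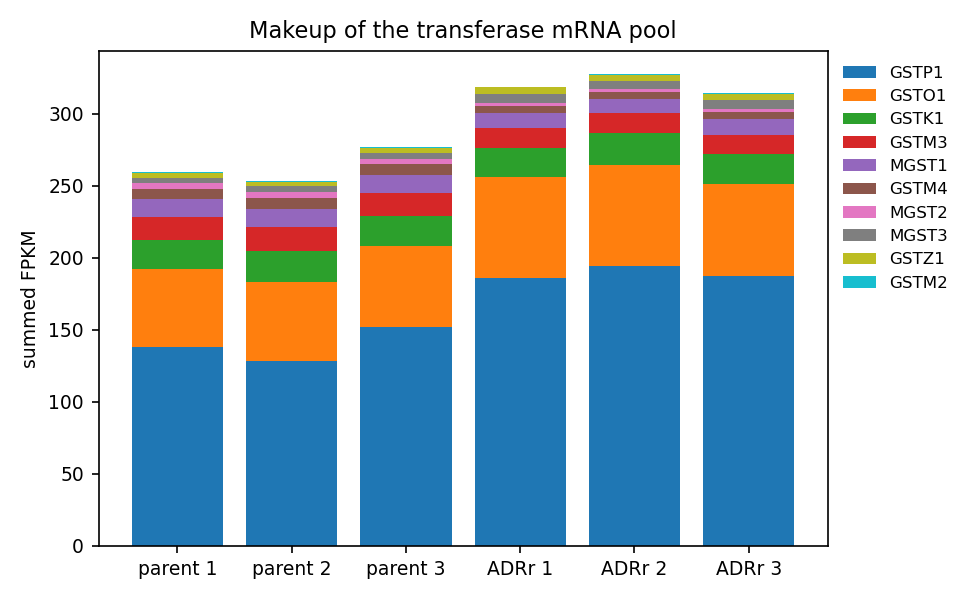
Summed FPKM of the 10 glutathione transferases in each library, stacked by gene with GSTP1 at the base. The ADRr sums lie between 314.4 and 327.5, above the parent sums of 253.2 to 277.1, and the GSTP1 segment accounts for most of that difference.

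Of 16 other transferases and related membrane enzymes looked up, 15 have a row, and GSTT1 was not analysed here. GSTA1, GSTA2, GSTA3, GSTA5, GSTM5, GSTT4 and HPGDS had 0 counts in all 6 libraries, so alpha-class transcripts other than GSTA4 were not detectable at this depth. GSTT2 and LTC4S had at most 16 counts and were not tested. Of the 6 that were tested, GSTM1 and GSTT2B were called lower and 0 higher by edgeR, with 0 higher at an unadjusted p under 0.05 and 0 by DESeq2. GSTT2B, a theta enzyme with a near-identical copy in GSTT2, fell from 287, 185 and 285 counts to 147, 127 and 135 counts. Its log2 fold change was -0.96 (standard error 0.14, edgeR adjusted p = 2.6e-06), and the split of its reads with GSTT2 is uncertain. GSTA4, which acts on 4-hydroxynonenal, had 72 to 86 counts in parent and 59 to 77 in ADRr libraries, and was not called (log2 fold change -0.31, adjusted p = 0.18). PTGES, a prostaglandin E synthase of the microsomal family, was at 0.10 (adjusted p = 0.16) and ALOX5AP at 0.00050 (adjusted p = 0.999), neither called.

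The GSTM cluster was also looked at with its neighbours. Of the 5 nearest tested genes on each side of GSTM2, 6 of 10 were called lower and 0 higher, with a median log2 fold change of -0.40. Those 6 include GSTM4 and GSTM1, whose reads are uncertain against those of GSTM2. Beyond the cluster, AMIGO1 (-0.37), AMPD2 (-0.51), CSF1 (-1.16) and AHCYL1 (-0.43) were called lower. GNAI3 (0.12) and CYB561D1 (0.043) were not called. The windows of GSTM3 (1 higher and 6 lower) and GSTM4 (0 higher and 6 lower) share most of these genes and are not separate evidence. The gene called higher near GSTM3 was KCNC4 (1.05), a potassium channel subunit. These counts stand beside 29.2% of all tested genes called higher and 29.6% called lower. Around GSTP1, 5 of 10 neighbours were called higher and 0 lower (median 0.26), and around GSTO1, 6 of 10 were called higher and 0 lower (median 0.44). Around MGST2, 1 was called higher and 5 lower (median -0.36). Around MGST3, 3 were higher and 5 lower (median -0.16), although MGST3 itself rose. Around GSTZ1 there were 4 higher and 2 lower, around GSTK1 3 and 4, and around MGST1 2 and 5. Windows were set by gene order and differ in span. The farthest neighbour of GSTO1, called higher, starts 5972249 bases away, and that of MGST1 5090473 bases away. No window was tested, and with 10 genes in each, no count is read as different from the shares over all genes. Whether the copy number of these regions differed between the lines was not tested.

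**Figure D4:**
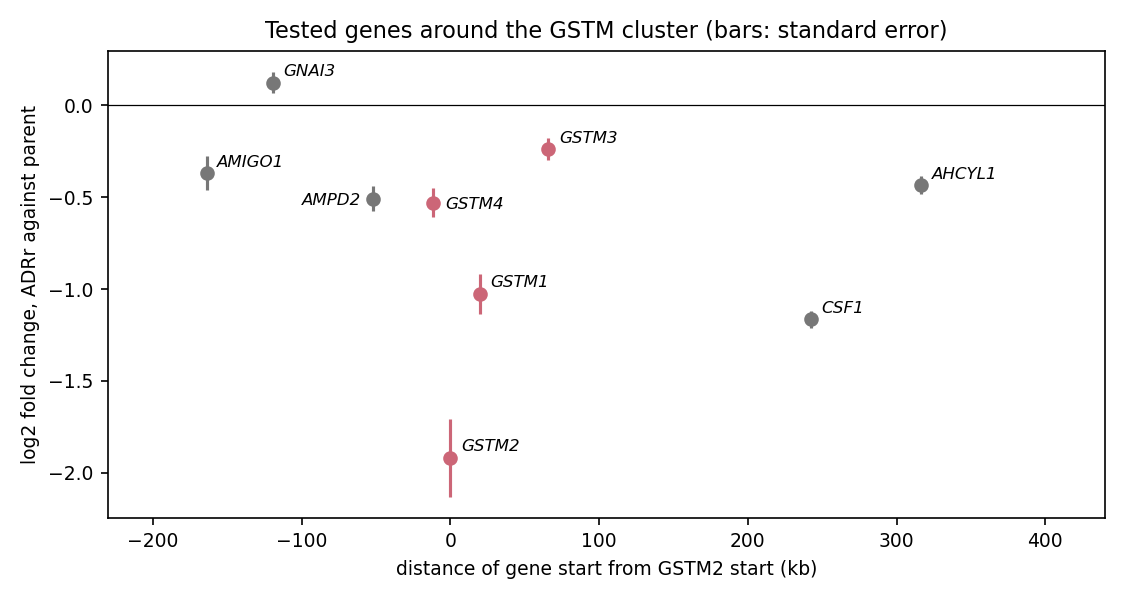
Log2 fold change (ADRr against parent, bars are standard errors) of GSTM2 and the 4 nearest tested genes on each side, by the distance of their starts from that of GSTM2 in kilobases. The 4 mu genes (red) lie between -1.92 and -0.24, and CSF1 (-1.16) is the lowest of the other genes (grey).

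The supply of glutathione was examined in a list of 16 genes. Of the 15 tested, 9 were called higher and 1 lower, where 29.2% and 29.6% of all tested genes were, and the median log2 fold change was 0.31. The largest rise was that of CTH, which makes cysteine from cystathionine (log2 fold change 2.55, standard error 0.077, edgeR adjusted p = 6.4e-18). CHAC1 and CHAC2, which degrade glutathione and do not supply it, rose by 1.94 and 0.85. They are among the 9, as is TXNRD1 (0.91), a thioredoxin reductase, so the 9 are not all genes of glutathione supply. SLC7A11, the cystine importer, rose by 1.52 and its partner SLC3A2 by 0.91. Among the enzymes that build glutathione, GCLM, the modifier subunit of the rate-limiting ligase, rose by 0.30 (standard error 0.059, adjusted p = 1.1e-04) and GSS, glutathione synthetase, by 0.37 (standard error 0.053, adjusted p = 1.8e-06). GCLC, the catalytic subunit of that ligase, was at -0.19 (standard error 0.092, adjusted p = 0.069) and GSR, which recycles oxidised glutathione, at -0.20 (standard error 0.069, adjusted p = 0.016), neither called. IDH1, a source of NADPH, was the gene called lower (-0.27), just past the fold threshold. Under 9 of 20 alternative settings, among them the fit without ADRr replicate 1, 0 genes of this list were called lower.

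A list of 26 genes covered what becomes of conjugates and protein thiols. Of the 21 tested, 11 were called higher and 6 lower, with a median log2 fold change of 0.32. Over all tested genes 29.2% were called higher and 29.6% lower, so the count of lower genes is near the background. The rises of at least 1 were those of ABCG2 (1.58), ETHE1 (1.44), GLRX3 (1.32), CNDP2 (1.31) and ABCC4 (1.10). ABCG2 and ABCC4 are export pumps, ETHE1 is a mitochondrial persulfide dioxygenase, GLRX3 a glutaredoxin and CNDP2 a dipeptidase that can split cysteinylglycine. ABCC1, the pump best known for exporting glutathione conjugates, fell by 0.29 (standard error 0.053, edgeR adjusted p = 4.9e-05). Among the other ABCC pumps listed, ABCC2 (0.75) was called higher, ABCC3 (-0.46) and ABCC5 (-0.30) lower, and ABCC10 (0.094) was not called. LAP3, an aminopeptidase, had the largest decrease of this list (-0.56).

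Of 14 regulators of transferase genes, 11 were tested, 6 were called higher and 0 lower (29.2% and 29.6% over all tested genes), and the median log2 fold change was 0.71. At an unadjusted p under 0.05, 3 were lower in edgeR's test, GATA3 (-0.22), ARNT (-0.18) and SP1 (-0.17), all below the fold threshold, and DESeq2 called 0 genes of this list lower. NFE2L2, which encodes NRF2, rose by 0.71 (standard error 0.058, edgeR adjusted p = 3.1e-10), and KEAP1, which targets NRF2 for degradation, was at -0.079 (standard error 0.065, adjusted p = 0.29). The small MAF partners MAFF and MAFG rose by 2.38 and 1.15, BACH1, a repressor at the same DNA elements, by 1.21, and the xenobiotic receptor AHR by 1.07. Nothing here measures the nuclear level or the binding of these factors.

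Among 7 genes whose proteins are known to bind or modify transferases, 1 was called higher and 3 lower, beside 29.2% and 29.6% of all tested genes, with a median log2 fold change of -0.15. MAPK8, the JNK kinase that GSTP1 binds, rose by 0.44 (standard error 0.065, edgeR adjusted p = 2.5e-06). TGM2, a protein cross-linking enzyme, had the largest decrease (-1.82, standard error 0.046, edgeR adjusted p = 3.7e-19). FANCC, a subunit of the Fanconi anaemia core complex, fell by 0.34 and TRAF2, a signalling adaptor, by 0.33.

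**Figure D5:**
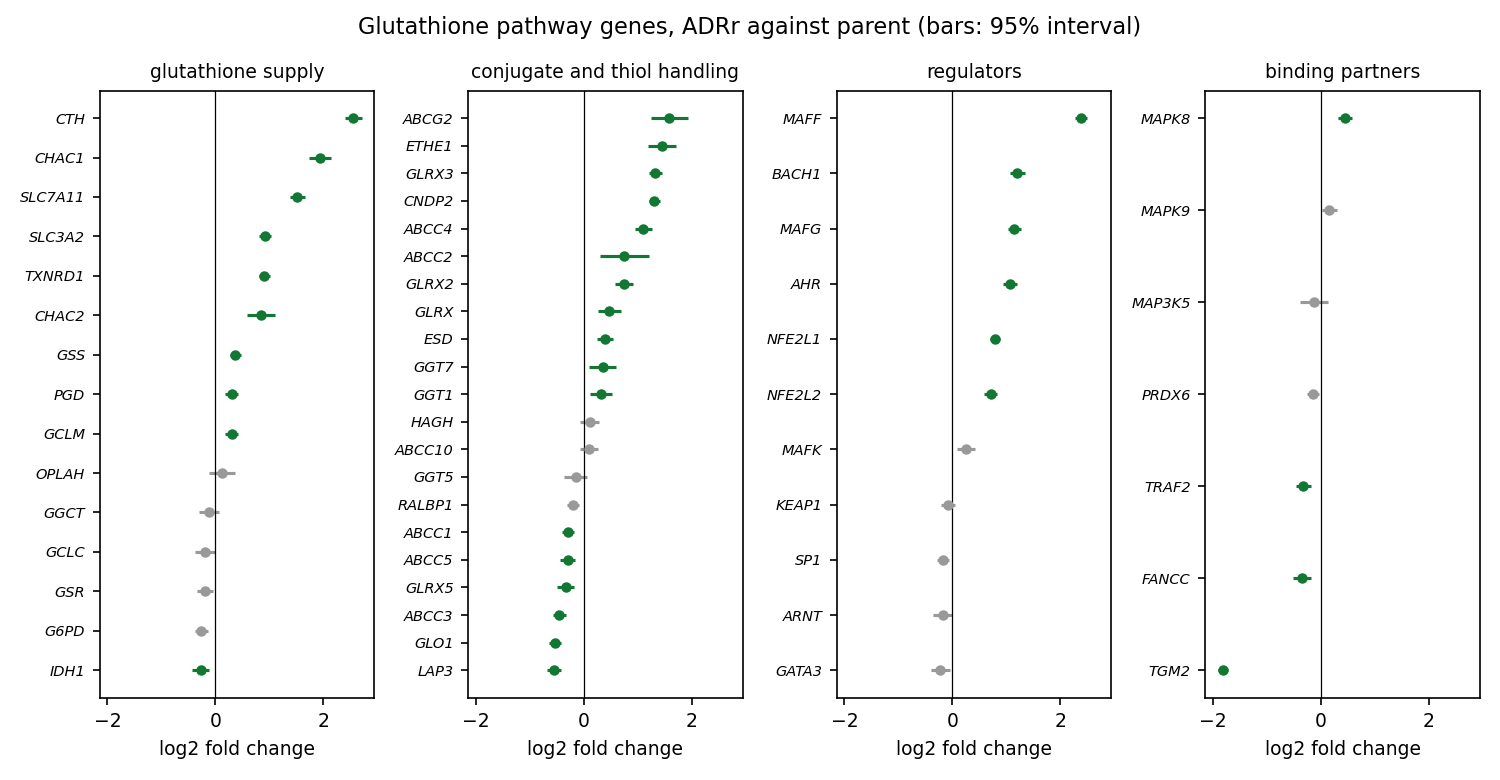
Log2 fold change (ADRr against parent) with 95% intervals for the tested genes of the 4 lists, each panel sorted by size, with called genes in green. CTH (2.55) and MAFF (2.38) lie farthest to the right, and TGM2 (-1.82) farthest to the left.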

How the data were processed

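RNA from 3 parent and 3 ADRr libraries was sequenced by the authors. According to the methods, polyadenylated RNA was selected and paired-end reads were mapped and counted by gene. The submitters' processing notes name HISAT2 2.0.5, featureCounts 1.5.0-p3, fastp, DESeq2 1.20.0 and GRCh38. The annotation, the strand setting and the handling of reads that match several genes are not given in the sources used here. The authors deposited raw read counts for each gene. They also deposited FPKM. Exon lengths of the members equal those of GENCODE 29.

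Counts were filtered with filterByExpr, normalized with TMM and tested with edgeR 4.0.16 (limma 3.58.1, DESeq2 1.42.0, R 4.3.3) by a quasi-likelihood test on 6 libraries, with Benjamini-Hochberg adjustment over 15242 genes. Sums, shares and ratios of FPKM were compared by exact permutation tests (scipy 1.17.1). The tests were also run on simulated counts. These held fewer changed genes than were called here, with larger changes than most members showed, so that run does not check the member calls. Promoter windows came from RefSeq for 9 of 10 members, all but MGST2. All members were described. In each other list, called genes that changed by 1 or more on the log2 scale, the largest called rise and fall, and 8 preset genes were named. SLC3A2, CHAC2, TXNRD1, KCNC4, GATA3, ARNT, SP1 and the genes around the GSTM cluster, the unlisted transferases, and the genes named for counts of 5 or fewer were named in addition. So were ABCC2, ABCC3, ABCC5 and ABCC10. A neighbouring gene of the GSTM cluster is counted but not reported by name here. The members and lists were chosen with earlier results of these data known.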

Additional observations from a re-analysis of the deposited data

How the results depend on the processing

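Over 20 alternative settings GSTK1 was never called (-0.04 to 0.03) and MGST2 always was. GSTM2 was called in all 19 settings that kept it as a gene of its own. The other members kept their direction. MGST1 was not called with library size alone (-0.25, adjusted p = 6.8e-04), with protein-coding genes only (-0.26), with limma on log2(FPKM + 1) with a filter (-0.248) or without one (-0.248), or with glmTreat (-0.27, adjusted p = 0.32), and it lay between -0.30 and -0.25 when 1 library was left out. Its adjusted p ranged from 6.5e-05 to 0.32. GSTM3 was called by the adjusted p alone (-0.24). GSTO1 was not called by glmTreat (0.30). An absolute log2 fold change of 1.2 removed the calls of GSTP1 (0.44), GSTO1 (0.30), GSTZ1 (0.59), GSTM4 (-0.53), MGST1 (-0.27) and MGST3 (0.64). It left 0 members higher and 2 lower, and 1114 genes higher and 972 lower in all. Under it the counts higher and lower were 4 and 0 for conjugate and thiol handling, 3 and 0 for glutathione supply, 0 and 1 for binding partners, 2 higher for regulators and 0 lower for the other transferases.

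The adjusted p alone gave 3 supply genes lower, 2 partners higher and 2 regulators lower. Supply genes called lower numbered 0 with library size alone, a minimum of 10 counts per library, protein-coding genes only, all 3 limma settings and glmTreat. When 1 library was left out they numbered 0 (without ADRr replicate 1) to 2 (without ADRr replicate 3), and regulators called lower 0 to 1 (without parent replicate 2 or 3). The cause was not tested. With glmTreat 3 handling genes and 1 partner were lower. With the GSTM counts summed, 1 other transferase was lower, since GSTM1 became part of the sum. The share of GSTO1 reversed (-0.0084 percentage points) without ADRr replicate 1 and lay between -0.0084 and 0.93 when 1 library was left out. With all listed transferases in the sum, the difference in its share was 1.31 percentage points.

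Libraries with the same number did not deviate together over the tested genes (r from -0.0457 to 0.00735). With 3 libraries per group this cannot show whether libraries of the same number shared a batch or culture. The main fit used no pairing. With the replicate number as a block, 4 members were again called higher and 4 lower, and 4406 and 4464 genes in all. GSTM2 had the fewest counts of the members, 27 to 42 in ADRr libraries. It lay between -2.05 and -1.74 when 1 library was left out, and at -0.57 on the log2(FPKM + 1) scale.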
